A study of Mus musculus with 42 samples.

Results

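The genes described here encode the nuclear pore and the receptors that carry cargo through it, measured in mouse embryos injected at the 1-cell stage. Members were chosen by gene symbol: nucleoporins (Nup followed by a number), importin alpha and importin beta genes (Kpna, Kpnb), other importins (Ipo), exportins (Xpo, Xpot) and transportins (Tnpo). This gave 42 of the 18193 genes that have a probe set with 1 gene symbol, and 111 probe sets matched them. Of several probe sets for a gene, the one with the highest mean log2 level over the 42 arrays was used. All 42 passed the filter on low values, which left 15478 genes tested in the whole series.

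The series holds 42 Affymetrix arrays of preimplantation embryos of the strain B6D2F1, in 14 groups of 3. Morpholinos are synthetic oligomers that pair with an mRNA and stop its translation or its splicing, so the amount of the target mRNA may stay as it is. Per the labels, embryos grew in human tubal fluid medium with serum and were collected 20 h or 44 h after injection, and the labels give neither sex nor the number of embryos behind an array. The study asks which transcripts depend on Oct4 (gene symbol Pou5f1), Sall4 and Nanog, transcription factors of pluripotent cells. At 20 h, embryos with the Oct4 morpholino and with the Sall4 morpholino were each set against uninjected embryos of their own experiment. At 20 h the Nanog experiment held embryos with the Nanog morpholino, with the control morpholino and without injection. At 44 h, embryos with the Oct4 and with the Sall4 morpholino shared 1 set of control-injected and 1 set of uninjected embryos, so values of both knockdowns rest on the same control arrays. The Nanog experiment at 44 h again had its own control-injected and uninjected embryos. The control oligomer matches no mouse sequence, and uninjected embryos carry neither oligomer nor injection. Array medians ran from 193 to 227 in the Nanog experiment and from 26.1 to 33.3 on the other 24 arrays, so levels were compared within an experiment. Titles number the arrays as biological replicates, and no label says that they come from separate litters. The p-values rest on a spread among arrays that was pooled over all 14 groups, not on that of the compared groups alone. The 3 arrays a group limit the precision.

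Transcription factors and other nuclear proteins reach the chromatin only through nuclear pores. The pore is a ring of nucleoporins: the Y complex and the inner ring form its scaffold, membrane nucleoporins anchor it, and nucleoporins with phenylalanine-glycine repeats fill its channel and bind transport receptors. Importin alpha adaptors recognise classical nuclear localisation signals and enter with importin beta (Kpnb1), other importins and transportins bind their cargo directly, and exportins carry proteins and RNA out. The small GTPase Ran, in its GTP form inside the nucleus, releases imported cargo and loads exportins. In the early embryo these proteins and mRNAs are first supplied by the egg and then made from the embryo's own genome.

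Of the nuclear pore and transport genes, 33 of 42 passed the test in at least 1 of the 12 comparisons made. The share of all genes that passed at least once was not counted. Most calls were between 44 h and 20 h. There 45.5% of all genes passed in the Oct4 and Sall4 experiments and 25.6% in the Nanog experiment. Among the injections, the Oct4 morpholino at 44 h gave the most calls, 12 genes lower than with the control morpholino and 0 higher. The genes that passed in no comparison were Nup155, Nup160, Nup54, Kpnb1, Ipo4, Ipo13, Tnpo1, Xpo1 and Xpo7. Below, "passed" means an adjusted p under 0.05 (limma, Benjamini-Hochberg over all genes tested), levels are deposited intensities on a linear scale, and changes are differences of log2(intensity + 16) with their standard error (SE). In embryos collected whole, fewer cells and less RNA per cell cannot be told apart.

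**Figure D1:**
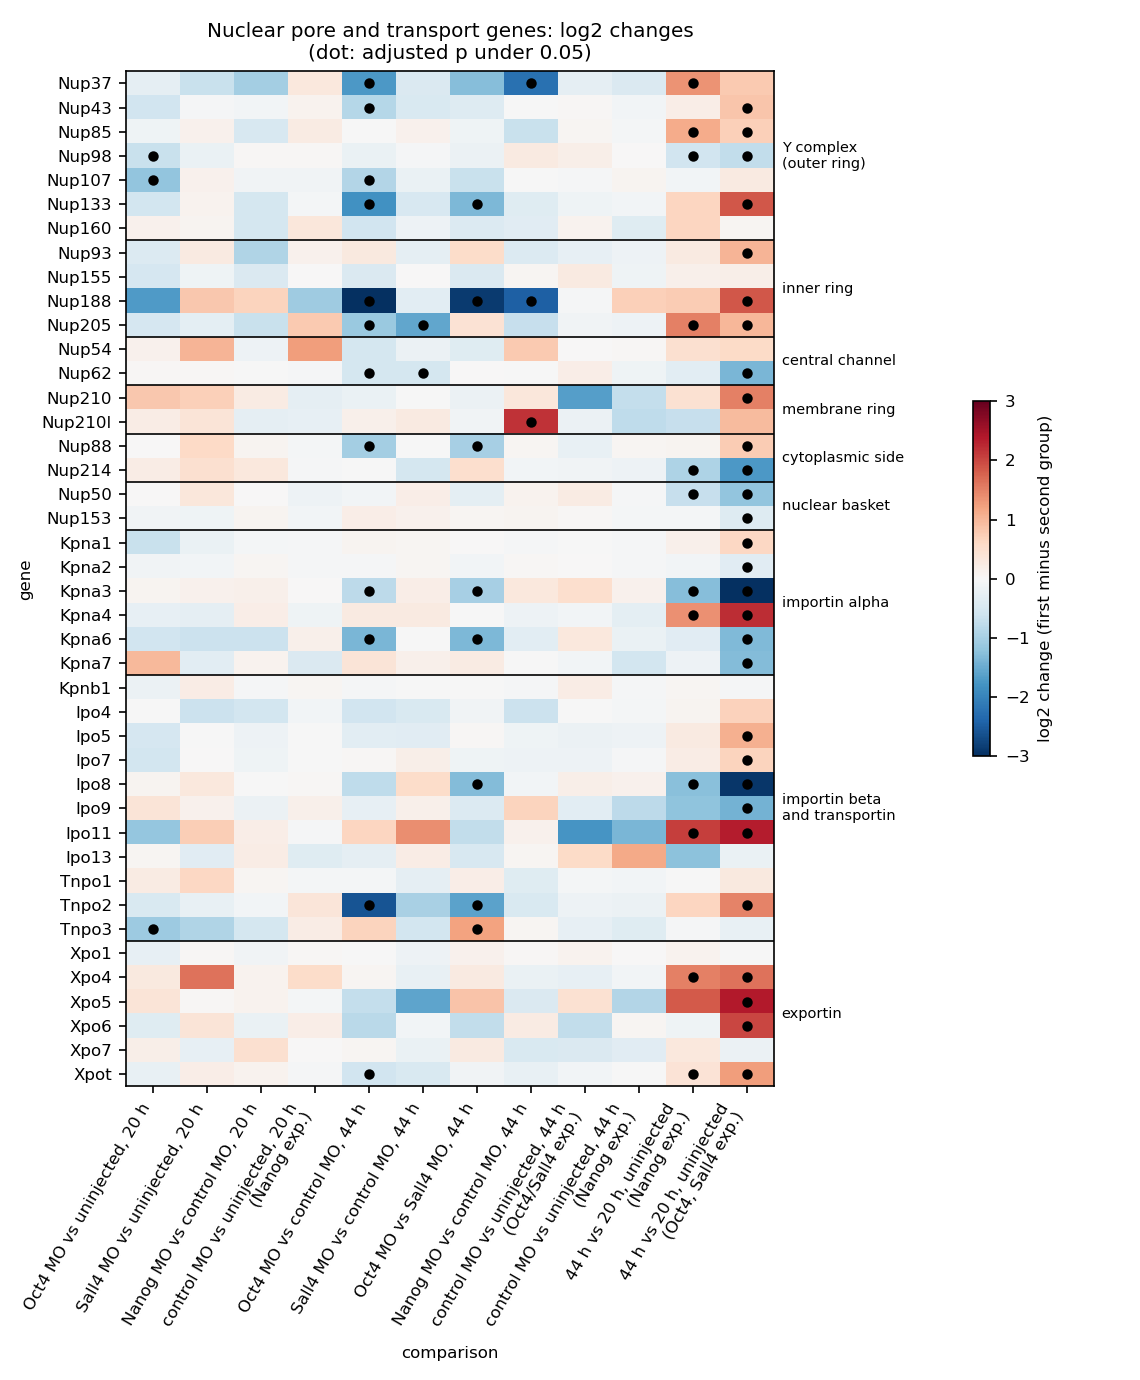
Log2 change of each of the 42 genes (rows, by role) in each of the 12 comparisons (columns, first group minus second), with a dot where the adjusted p was under 0.05. The columns of 44 h against 20 h hold dots for 29 genes in the Oct4 and Sall4 experiments and 12 in the Nanog experiment. The column of the Oct4 morpholino against the control at 44 h holds 12 genes that were all lower.

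The mRNA of the targeted gene was checked first. Pou5f1 was at 3293 ± 466 with the Oct4 morpholino and 2803 ± 203 in uninjected embryos at 20 h (log2 0.22, adjusted p = 0.857). At 44 h it fell to 2218 ± 259.9 with the Oct4 morpholino, against 3925 ± 456 with the control morpholino (SD, n = 3 each, log2 -0.82, adjusted p = 0.00323). Pou5f1 fell at 44 h with the other morpholinos as well, to 2203 ± 712 with the Sall4 morpholino, against 3925 ± 456 with the control (log2 -0.88, adjusted p = 0.00455), and to 4034 ± 665 with the Nanog morpholino, against 6495 ± 376 with its control (log2 -0.70, adjusted p = 0.0236). Between the Oct4 and the Sall4 morpholino it differed by log2 0.06, adjusted p = 0.929, so the level of Pou5f1 does not set the arrays labelled Oct4 apart. At 20 h, Sall4 with its own morpholino stood at 2160.2 ± 534 against 2153 ± 541 (log2 0.00, adjusted p = 1.00), and Nanog with its own at 83.2 ± 53.2 against 111 ± 76.0 (log2 -0.29, adjusted p = 1.00). At 44 h, Sall4 with its own morpholino stood at 3662 ± 462 against 3169 ± 385 (log2 0.21, adjusted p = 0.702), and Nanog with its own at 2687 ± 1129 against 3828 ± 110.2 (log2 -0.61, adjusted p = 0.654). Sall4 mRNA was lower with the Oct4 morpholino at 44 h, 1585 ± 64.6 against 3169 ± 385 (log2 -0.99, adjusted p = 0.000725). These mRNA levels check the labels only in part, since a morpholino acts on translation or splicing.

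Between 44 h and 20 h, uninjected embryos differed in the mRNA of many import receptors. The importin alpha genes Kpna3 and Kpna6, the importins Ipo8 and Ipo9 and the nucleoporins Nup214, Nup50 and Nup62 fell in the Oct4 and Sall4 experiments, while Kpna4, Ipo11, Tnpo2, the exportins Xpo4 and Xpo5 and the scaffold nucleoporins Nup133 and Nup188 rose. In these experiments 29 of 42 genes passed (69.0%, against 45.5% of all genes tested), 18 higher and 11 lower. The higher ones made up 42.9% of the members, against 20.4% of all genes, and the lower ones 26.2%, against 25.0%. The median change was 0.60 over the 42 genes and -0.06 over all genes. In the Nanog experiment 12 passed (28.6%, against 25.6% of all genes), 7 higher (16.7%, against 9.28%) and 5 lower (11.9%, against 16.3%), with medians of 0.12 and 0.02. These shares and medians describe the list and are not a test of it. The 44 h embryos of the Oct4 and Sall4 experiments were compared with the mean of both 20 h groups, which crosses separately labelled experiments, while the Nanog experiment has its own embryos at both times. The ratio of the 3′ to the 5′ control probe set of Gapdh, a sign of RNA length, was 0.930 to 3.82 at 44 h in these experiments, against 2.90 to 3.72 in the Oct4 experiment and 1.83 to 15.996 in the Sall4 experiment at 20 h. That of actin was 0.849 to 0.991 at 44 h, above the range of 0.489 to 0.821 in the Oct4 experiment at 20 h and inside that of 0.278 to 1.90 in the Sall4 experiment at 20 h. In the Nanog experiment the ratios at 44 h were 2.66 to 4.42 for Gapdh and 1.04 to 1.15 for actin, against 2.12 to 5.42 and 0.782 to 1.31 at 20 h. The part of RNA length in the changes over time was not tested.

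All 6 importin alpha genes passed over time in the Oct4 and Sall4 experiments, 4 lower and 2 higher. Over all genes, 25.0% were lower and 20.4% higher there. Kpna3, an adaptor for classical import signals, had intensities of 228, 271 and 216 at 44 h, against 1759.5, 1987 and 2069.8 in the Oct4 experiment and 2029.7, 2094 and 3120.3 in the Sall4 experiment at 20 h. Every 44 h array lay far below every 20 h array (log2 -3.09, SE 0.17, adjusted p = 4.31e-15). Kpna3 in the Nanog experiment had 2673, 3421 and 4112 at 44 h, against 7946, 9203 and 7538 at 20 h, again without overlap (log2 -1.29, SE 0.20, adjusted p = 1.16e-05). Kpna4, the closest relative of Kpna3, went the other way. It had 1109.8, 765 and 1037 at 44 h, against 143, 109 and 144 in the Oct4 experiment and 498, 413 and 108 in the Sall4 experiment at 20 h, so that the lowest array at 44 h was above the highest at 20 h (log2 2.21, SE 0.35, adjusted p = 3.46e-06). Kpna4 in the Nanog experiment stood at 7752, 6701 and 6439 at 44 h, against 1824, 2836 and 3626 at 20 h (log2 1.38, SE 0.40, adjusted p = 0.00984), and these groups did not overlap either. Kpna6, the adaptor that mouse embryos need from the egg to pass the first cleavages, had 484, 327 and 666 at 44 h, against 955, 1088 and 1255 in the Oct4 experiment and 1103, 826 and 2556 in the Sall4 experiment at 20 h. The groups did not overlap (log2 -1.32, SE 0.32, adjusted p = 0.00108), but in the Nanog experiment its change of -0.35 did not pass (adjusted p = 0.557). Kpna7, an importin alpha of oocytes and early embryos, had 81.2, 92.2 and 114 at 44 h, against 208, 269 and 176 in the Oct4 experiment and 376, 293 and 267 in the Sall4 experiment at 20 h (log2 -1.30, SE 0.27, adjusted p = 0.000158), and changed by -0.14 in the Nanog experiment (adjusted p = 0.797). Kpna2 fell by a smaller step, with 3249, 2979 and 2747 at 44 h, against 3965, 3278 and 3665 in the Oct4 experiment and 3709, 3940.4 and 4096 in the Sall4 experiment at 20 h (log2 -0.33, SE 0.10, adjusted p = 0.00685). Kpna1 rose, with 2454, 1909 and 2215 at 44 h, against 1855, 1687 and 1875 in the Oct4 experiment and 1174, 1134 and 1017 in the Sall4 experiment at 20 h (log2 0.62, SE 0.17, adjusted p = 0.00281). Kpna1 and Kpna2 changed by 0.16 and -0.09 in the Nanog experiment and did not pass. Leaving out 1 array ended the call of Kpna2 in the Oct4 and Sall4 experiments without 44 h replicate 3 (0.0583) and that of Kpna4 in the Nanog experiment without 20 h replicate 1 (0.0735), where the values in parentheses are adjusted p.

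**Figure D2:**
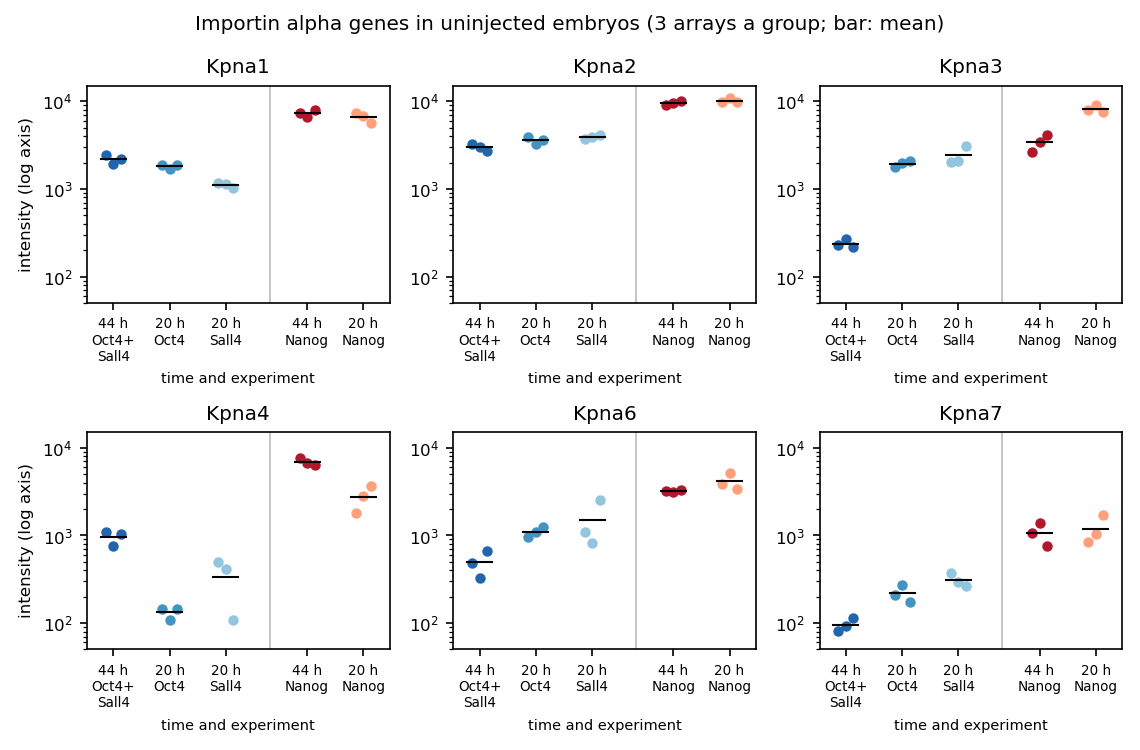
Intensity (log axis) of the 6 importin alpha genes in uninjected embryos, 1 point per array and a bar for the mean of 3 arrays, with 44 h left of 20 h for the Oct4 and Sall4 experiments and for the Nanog experiment. Kpna3 is lower and Kpna4 higher at 44 h in both, and absolute intensities of the Nanog arrays lie on a higher scale.

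Among the importin beta relatives, 4 of 11 rose and 2 fell in the Oct4 and Sall4 experiments, and 1 rose and 1 fell in the Nanog experiment. Over all genes, 20.4% rose and 25.0% fell in the former, and 9.28% and 16.3% in the latter. Ipo8, an importin that carries Argonaute and Smad proteins, had 455, 559 and 412 at 44 h, against 3462, 3904 and 3748 in the Oct4 experiment and 3661, 3450.3 and 3867 in the Sall4 experiment at 20 h. Each 44 h array was far below each 20 h array (log2 -2.92, SE 0.24, adjusted p = 1.03e-11), and in the Nanog experiment it had 3959, 3695 and 4593 at 44 h, against 9478, 9250.0 and 10222 at 20 h (log2 -1.24, SE 0.27, adjusted p = 0.000787). Ipo9, an importin of histones, had 229, 364 and 366 at 44 h, against 1017, 1018 and 860.0 in the Oct4 experiment and 742, 915 and 691 in the Sall4 experiment at 20 h, without overlap (log2 -1.42, SE 0.41, adjusted p = 0.00458). Its change of -1.20 in the Nanog experiment did not pass (adjusted p = 0.0585). Ipo11, which imports ubiquitin-conjugating enzymes, rose in both experiments. It had 563, 895 and 731 at 44 h, against 271, 61.8 and 96.2 in the Oct4 experiment and 55.3, 136 and 309.6 in the Sall4 experiment at 20 h (log2 2.35, SE 0.40, adjusted p = 1.27e-05). The Nanog arrays showed 2875, 4186 and 2531 at 44 h, against 820.0, 1069 and 439 at 20 h (log2 2.08, SE 0.46, adjusted p = 0.000969). All arrays at 44 h were above all arrays at 20 h in both. Tnpo2, a transportin that imports RNA-binding proteins, had 607, 533 and 436 at 44 h, against 222, 232 and 281 in the Oct4 experiment and 63.2, 121 and 231 in the Sall4 experiment at 20 h (log2 1.50, SE 0.34, adjusted p = 0.000556). The arrays of the times did not overlap, and its change in the Nanog experiment was 0.65 (adjusted p = 0.257). Ipo5 and Ipo7, importins of ribosomal proteins, rose by 1.07 and 0.66 in the Oct4 and Sall4 experiments. Kpnb1, the importin beta that pairs with importin alpha, changed by -0.04 there (SE 0.13, adjusted p = 0.840) and by 0.05 in the Nanog experiment (SE 0.15, adjusted p = 0.864). These values are of 1 of 4 probe sets of Kpnb1, which differ in the Oct4 morpholino comparison at 44 h given below.

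The exportins that passed were all higher at 44 h, 4 of 6 in the Oct4 and Sall4 experiments and 2 of 6 in the Nanog experiment. Over all genes, 20.4% and 9.28% were higher. Xpo4, which exports the translation factor eIF5A and Smad3, had 704, 667 and 689 at 44 h, against 370.3, 294 and 241 in the Oct4 experiment and 369, 125 and 64.2 in the Sall4 experiment at 20 h (log2 1.63, SE 0.42, adjusted p = 0.00157). The Nanog arrays showed 3118, 2977 and 4112 at 44 h, against 1414, 2014 and 554 at 20 h (log2 1.52, SE 0.48, adjusted p = 0.0180). Both comparisons were free of overlap. Xpo5, the exporter of microRNA precursors, had 524, 413 and 512 at 44 h, against 249, 35.5 and 34.6 in the Oct4 experiment and 19.7, 252 and 96.1 in the Sall4 experiment at 20 h, with widely spread 20 h arrays that all lay below the 44 h arrays (log2 2.38, SE 0.63, adjusted p = 0.00215). Xpot, the tRNA exporter, rose by 1.25 (SE 0.13) and Xpo6, the actin exporter, by 2.01 (SE 0.35) in the Oct4 and Sall4 experiments, and arrays of Xpo6 overlapped between the times. Xpot in the Nanog experiment had 7772, 8469.6 and 8128 at 44 h, against 5372, 6834 and 6137 at 20 h (log2 0.41, SE 0.15, adjusted p = 0.0443). Xpo1, the main exporter of proteins with leucine-rich signals, changed by -0.01 (SE 0.15) and by 0.09 (SE 0.17) and did not pass. Its other probe sets stood at 1.63 and 2.01 in the Oct4 and Sall4 experiments and at 1.32 and 3.59 in the Nanog experiment, so the probe sets of Xpo1 disagree. In the Nanog experiment the call of Xpo4 was lost without 20 h replicate 3 (0.173) or 44 h replicate 3 (0.0691), and that of Xpot without 20 h replicates 1 (0.197) or 3 (0.0875) or 44 h replicates 1 (0.0673), 2 (0.125) or 3 (0.0911) (adjusted p in parentheses).

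Scaffold nucleoporins, which are most of the nucleoporins among the members, also made up most of those that rose. Of 7 genes placed in the Y complex, 3 rose and 1 fell in the Oct4 and Sall4 experiments, and of 4 inner ring genes 3 rose. Over all genes, 20.4% rose and 25.0% fell there. Nup133, a Y complex subunit, had 1991, 1658 and 1513 at 44 h, against 694, 559 and 362 in the Oct4 experiment and 370.1, 338 and 519.9 in the Sall4 experiment at 20 h, without overlap (log2 1.86, SE 0.32, adjusted p = 1.20e-05). Nup188, a large inner ring protein, had 309, 503 and 489 at 44 h, against 189.9, 148 and 270.4 in the Oct4 experiment and 64.1, 6.95 and 161 in the Sall4 experiment at 20 h (log2 1.86, SE 0.57, adjusted p = 0.00794). Every 44 h array of Nup188 was above every 20 h array, with a narrow gap between the lowest and the highest of them. Nup205, the relative of Nup188 in the inner ring, rose in both, by 0.99 (adjusted p = 0.00314) and, in the Nanog experiment, to 3479, 3225 and 2541 at 44 h, against 885, 1178 and 1120.1 at 20 h (log2 1.52, SE 0.31, adjusted p = 0.000409). Nup85, of the Y complex, had 5606, 5448 and 6042 at 44 h, against 4323, 3113 and 1321 at 20 h, in the Nanog experiment (log2 1.12, SE 0.32, adjusted p = 0.00911), and rose by 0.72 in the others. Nup93, Nup43 and Nup88 rose by 1.02, 0.83 and 0.76 in the Oct4 and Sall4 experiments. Nup37, of the Y complex, passed in the Nanog experiment and not in the others, with overlapping arrays (log2 1.36). Nup210, a membrane nucleoporin, had 125, 117 and 68.2 at 44 h, against 13.7, 35.5 and 16.9 in the Oct4 experiment and 27.8, 54.2 and 14.2 in the Sall4 experiment at 20 h, near the low end of these arrays (log2 1.51, SE 0.33, adjusted p = 0.000340). The Nanog experiment had 6 calls without 20 h replicate 3, against 12 with all arrays. Calls lost without 1 array were those of Nup85 in the Nanog experiment without 20 h replicate 3 (0.152) and in the others without Oct4 experiment 20 h replicate 2 (0.0932), Sall4 experiment 20 h replicate 1 (0.0677) or 44 h replicates 1 (0.0715), 2 (0.0719) or 3 (0.0984). Nup37 was lost without 20 h replicates 1 (0.0661) or 3 (0.368) or 44 h replicates 1 (0.0998) or 2 (0.205), and Nup88 without 44 h replicate 3 (0.0864).

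The 5 nucleoporins that fell in the Oct4 and Sall4 experiments were Nup214, Nup50, Nup62, Nup98 and Nup153. Nup214, which docks exportin complexes on the cytoplasmic side, had 764, 569 and 881 at 44 h, against 2165, 2233 and 2324 in the Oct4 experiment and 2797, 2139 and 3228 in the Sall4 experiment at 20 h. It was lower on each 44 h array (log2 -1.73, SE 0.22, adjusted p = 7.07e-08), and in the Nanog experiment it had 2365, 3373 and 3446 at 44 h, against 5348, 4785 and 7520.4 at 20 h (log2 -0.93, SE 0.25, adjusted p = 0.00533). A second probe set of Nup214 stood at 0.80 and -0.10 in these comparisons, so the fall of Nup214 rests on 1 probe set. Nup50, a basket protein that helps import complexes come apart, had 960.3, 1153 and 670.3 at 44 h, against 2707, 2122 and 2161 in the Oct4 experiment and 1704, 1990.2 and 1971 in the Sall4 experiment at 20 h (log2 -1.19, SE 0.20, adjusted p = 7.82e-06). Nup50 in the Nanog experiment had 4764, 5842 and 4410.4 at 44 h, against 7296, 8522 and 8397 at 20 h (log2 -0.69, SE 0.23, adjusted p = 0.0224). The groups of Nup50 did not overlap in either. Nup62, a repeat protein of the central channel, had 3674, 2890.3 and 2232 at 44 h, against 6479.6, 6259 and 6533 in the Oct4 experiment and 8878, 7703 and 9125 in the Sall4 experiment at 20 h (log2 -1.36, SE 0.13, adjusted p = 6.38e-10), and -0.32 in the Nanog experiment (adjusted p = 0.134). Nup98 is a mobile repeat protein whose precursor also yields the Y complex subunit Nup96, which is why it is counted with the Y complex. It had 5777, 4847 and 5439 at 44 h, against 8115, 8045 and 7893 at 20 h, in the Nanog experiment (log2 -0.58, SE 0.17, adjusted p = 0.00901), and fell by 0.73 on the log2 scale in the others. Nup153, the basket protein that binds Nup50, changed by -0.39 (adjusted p = 0.00142) and passed in the Oct4 and Sall4 experiments. With the mean of its probe sets Nup153 stood at -0.19 (adjusted p = 0.633), and with the arrays of the times alone its adjusted p was 0.0620, so it did not pass in either. In the Nanog experiment, the call of Nup50 was lost without 20 h replicates 2 (0.0641) or 3 (0.0667) or 44 h replicates 1 (0.0665) or 3 (0.0904), that of Nup214 without 20 h replicate 3 (0.0521) and that of Nup98 without 44 h replicate 2 (0.0501) (adjusted p in parentheses). With the arrays of the times alone, the Nanog experiment had 5 calls, Kpna3, Kpna4, Ipo8, Ipo11 and Nup205, and Nup214, Nup50, Nup98, Nup85, Nup37, Xpo4 and Xpot no longer passed (adjusted p 0.0536 to 0.239).

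The Nanog experiment and the other experiments share no arrays, and the direction of change could be set side by side. The 6 genes Ipo11, Kpna4, Nup205, Nup85, Xpo4 and Xpot rose in both, which is 85.7% of the Nanog list and 33.3% of the other, where all genes gave 77.1% and 35.1%. The 5 genes Ipo8, Kpna3, Nup214, Nup50 and Nup98 fell in both, 100% and 45.5% of the lists, where all genes gave 83.6% and 54.3%. Of the 29 genes called in the Oct4 and Sall4 experiments, 28 had the same sign in the Nanog experiment, and 26 of these changed less there. Over the 29, which were chosen by their call in the others, the median size of the log2 change was 0.58 in the Nanog experiment and 1.32 in the others. Over all genes called in the others these medians were 0.88 and 1.62. Other probe sets of the called genes, with a mean intensity of 1000 in any of the 14 groups, were also compared. They had the same sign in 13 of 13 cases in the Nanog experiment and in 33 of 35 in the others. Beside these changes, 10 of 12 maternal oocyte transcripts fell in the Oct4 and Sall4 experiments and 9 of 12 in the Nanog experiment, and all 4 transcripts of the 2-cell stage fell in both. Their part in the changes of the transport genes was not tested.

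**Figure D3:**
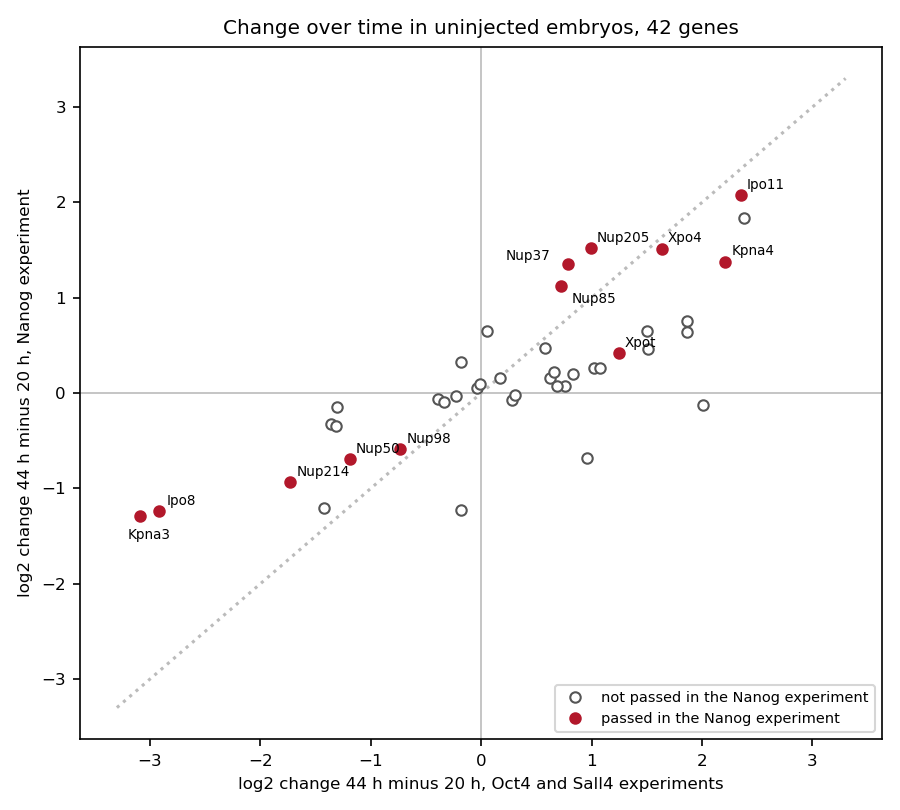
Log2 change of 44 h minus 20 h in uninjected embryos for the 42 genes, in the Oct4 and Sall4 experiments (horizontal) and the Nanog experiment (vertical), with filled points for genes that passed in the Nanog experiment. Kpna3 and Ipo8 lie lowest on both axes, at -3.09 and -2.92 against -1.29 and -1.24, and Ipo11 and Kpna4 are high on both.

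The stretch before the transcription start is shown for the importin alpha gene that rose over time in all experiments, Kpna4. It holds the 250 bases upstream of the start in RefSeq annotation of the build GRCm38.p6, chr3:69127093-69127342 on the minus strand, written 5′ to 3′ along the gene. Capitals mark 2 kinds of promoter element on either strand, the CCAAT box (CCAAT, or ATTGG on the other strand) and the GC box (GGGCGG, or CCGCCC on the other strand).
Kpna4: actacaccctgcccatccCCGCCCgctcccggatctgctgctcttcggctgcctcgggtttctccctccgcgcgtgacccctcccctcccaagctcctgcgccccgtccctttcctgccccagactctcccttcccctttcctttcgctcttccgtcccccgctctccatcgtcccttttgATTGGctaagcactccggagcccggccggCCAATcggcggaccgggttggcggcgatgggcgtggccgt
The Kpna4 window has a GC box 232 bases before the start and CCAAT boxes at 69 and 40 bases. A match is a description of the sequence. Of the 42 genes, 34 had a window in the RefSeq table. A CCAAT box stood in 17 of the 34 and in 34.5% of all 27025 windows, a GC box in 22 and in 32.9%, and the GC content had a median of 64.4% in the members and 52% in all windows.

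Of the 37 other genes of nuclear transport, listed apart from the members, 13 were higher and 7 lower at 44 h in the Oct4 and Sall4 experiments, and 9 were higher and 2 lower in the Nanog experiment. Among all genes, 20.4% were higher and 25.0% lower in the former, and 9.28% and 16.3% in the latter. Rangrf, whose protein binds Ran, had 316 ± 99.8 at 44 h and 36.3 ± 23.0 at 20 h (SD, n = 3 and 6) in the Oct4 and Sall4 experiments (log2 2.73, SE 0.47, adjusted p = 1.53e-05). Its change in the Nanog experiment was 2.05 (SE 0.54, adjusted p = 0.00504), lost without 20 h replicate 3 (0.0651). Rcc1, the exchange factor that loads Ran with GTP on chromatin, had 879.7 ± 29.6 at 44 h and 156 ± 79.7 at 20 h (log2 2.56, SE 0.35, adjusted p = 3.39e-07). Ddx39b, a helicase of mRNA export, rose by 2.45 there (SE 0.34), and Rcc2, which resembles Rcc1, by 2.59 (SE 0.26). In the Nanog experiment the membrane nucleoporin gene Ndc1 rose by 1.59, lost without 20 h replicate 1 (0.0788), and Nxt2, a cofactor of mRNA export, fell by 1.87 on the log2 scale, lost without 20 h replicate 1 (0.0555) (adjusted p in parentheses). Rcc2 rose by 1.34 in the Nanog experiment by its brightest probe set, and stood at -0.18 there with the mean of its probe sets.

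With the Oct4 morpholino at 44 h, 12 of the 42 genes were lower than in control-injected embryos and 0 were higher. The lower ones, 28.6% of the members, stand beside 6.18% of all genes that were lower, and beside 0 higher members stand 5.38% of all genes that were higher (15 members had an unadjusted p under 0.05 in limma). In either direction the background was 11.6%. They were Nup133, Nup107, Nup37 and Nup43 of the Y complex, Nup188 and Nup205 of the inner ring, Nup62 of the channel, Nup88 of the cytoplasmic side, the importin alpha genes Kpna3 and Kpna6, the transportin Tnpo2 and the tRNA exporter Xpot. The largest falls were those of Nup188, Tnpo2 and Nup133. The median change was -0.25 over the 42 genes and 0.02 over all genes, and 31 of 42 genes were negative, where all genes gave 7484 of 15478.

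The Y complex had 4 of 7 genes lower (6.18% of all genes were lower) and a median of -0.85, and all 7 were negative. Nup133, a Y complex subunit that senses membrane curvature, had 622, 543 and 231 with the Oct4 morpholino, against 1149, 1671 and 1966 with the control morpholino. The highest Oct4 morpholino array was well below the lowest control array (log2 -1.82, SE 0.37, adjusted p = 0.000992). Nup107, the scaffold subunit next to Nup133, had 383, 890.3 and 786 with the Oct4 morpholino, against 1074, 1214 and 1306 with the control morpholino, without overlap (log2 -0.87, SE 0.24, adjusted p = 0.0152). Nup37, a peripheral subunit, had 125, 47.1 and 85.2 with the Oct4 morpholino, against 297, 339 and 269.5 with the control morpholino (log2 -1.71, SE 0.50, adjusted p = 0.0212). Nup43, another peripheral subunit, had 354, 740.5 and 349 with the Oct4 morpholino, against 549, 1059 and 972 with the control morpholino, and its arrays overlapped (log2 -0.85, SE 0.24, adjusted p = 0.0181). The other Y complex genes Nup85, Nup160 and Nup98 changed by -0.01, -0.58 and -0.20 and did not pass. Nup133 passed without each of the 6 arrays in turn. The call of Nup107 was lost without control replicates 2 (0.0502) or 3 (0.0627) or Oct4 morpholino replicate 1 (0.182), that of Nup37 without control replicates 1 (0.0546) or 2 (0.0779) or Oct4 morpholino replicate 2 (0.112) and that of Nup43 without control replicates 2 (0.127) or 3 (0.0930) or Oct4 morpholino replicates 1 (0.104) or 3 (0.114) (adjusted p in parentheses).

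In the inner ring, 2 of 4 genes were lower (6.18% of all genes were lower). Nup188 had 12.9, 62.8 and 31.2 with the Oct4 morpholino, against 400.3, 506 and 356 with the control morpholino, a fall to the low end of these arrays on each of them (log2 -3.18, SE 0.66, adjusted p = 0.00136). Nup205 had 203, 321 and 178 with the Oct4 morpholino, against 433, 482 and 641 with the control morpholino, without overlap (log2 -1.12, SE 0.31, adjusted p = 0.0163). Nup155 and Nup93, the other inner ring genes, changed by -0.44 and 0.29 and did not pass. Nup62 had 2002, 2712 and 2253 with the Oct4 morpholino, against 3416, 3198 and 3359 with the control morpholino (log2 -0.53, SE 0.15, adjusted p = 0.0226), and Nup88, the cytoplasmic partner of Nup214, had 477, 597 and 249 with the Oct4 morpholino, against 775, 969 and 832 with the control morpholino (log2 -1.01, SE 0.26, adjusted p = 0.00793). Neither overlapped. Nup214, Nup54 and the basket genes Nup153 and Nup50 changed by -0.02, -0.54, 0.20 and -0.08 and did not pass. Nup188 passed without each array in turn. The call of Nup205 was lost without control replicate 3 (0.0898) or Oct4 morpholino replicates 1 (0.0573) or 3 (0.0836), that of Nup62 without control replicates 1 (0.0701) or 3 (0.0638) or Oct4 morpholino replicates 1 (0.116) or 3 (0.0627) and that of Nup88 without Oct4 morpholino replicate 3 (0.103) (adjusted p in parentheses). A second, dim probe set of Nup188, with no group mean above 227, stood at 0.48, and the second probe set of Nup205 at -1.17.

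Among the transport receptors, Tnpo2 had 24.8, 78.2 and 119.6 with the Oct4 morpholino, against 335, 514 and 583 with the control morpholino. Each Oct4 morpholino array was below each control array by a wide margin (log2 -2.58, SE 0.40, adjusted p = 3.85e-05), and Tnpo2 passed without each array in turn. Its other probe sets stood at -1.34 and -2.44. Kpna6 had 212, 222 and 223 with the Oct4 morpholino, against 436, 651 and 731 with the control morpholino (log2 -1.37, SE 0.37, adjusted p = 0.0134). Kpna3 had 158, 199 and 228 with the Oct4 morpholino, against 419.8, 306 and 313 with the control morpholino (log2 -0.78, SE 0.20, adjusted p = 0.00891), and Xpot had 2205, 2092 and 2134 with the Oct4 morpholino, against 3132, 3084 and 3401 with the control morpholino (log2 -0.58, SE 0.15, adjusted p = 0.0116). None of these groups overlapped. The call of Kpna6 was lost without control replicates 2 (0.0547) or 3 (0.0675), that of Kpna3 without control replicate 1 (0.0686) or Oct4 morpholino replicate 1 (0.0596) and that of Xpot without control replicate 3 (0.0526) (adjusted p in parentheses). The other probe sets of Kpna3 stood at -0.30 and 0.44 and that of Kpna6 at 0.18, so these importin alpha falls rest on 1 probe set each. With the mean of all probe sets of a gene, Kpna3 stood at -0.21 (adjusted p = 0.625) and Kpna6 at -0.60 (adjusted p = 0.181). Over the 12 genes, 12 of the 15 other probe sets with a mean intensity of 1000 in any of the 14 groups had the same sign. That group may be one of the Nanog experiment, so these probe sets can be dimmer on the arrays compared here.

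The remaining receptors showed no call. Kpna1, Kpna2, Kpna4 and Kpna7 changed by 0.07 (SE 0.19), -0.03 (SE 0.12), 0.26 (SE 0.40) and 0.38 (SE 0.31). Kpna2 had 2864, 3137 and 2817 with the Oct4 morpholino, against 3032, 2934 and 3018 with the control morpholino, and its groups overlapped. Kpnb1 changed by -0.03 (SE 0.15) and Xpo1 by -0.01 (SE 0.17). Their other probe sets stood lower, at -0.11, -1.88, -1.01 for Kpnb1 and at -0.09 and -1.48 for Xpo1, so the change of these genes depends on the probe set. Tnpo3, which imports splicing factors rich in arginine and serine, had 1284, 1711 and 1599 with the Oct4 morpholino, against 941, 1167 and 794 with the control morpholino, higher on each array, but did not pass (log2 0.66, SE 0.25, adjusted p = 0.0866).

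**Figure D4:**
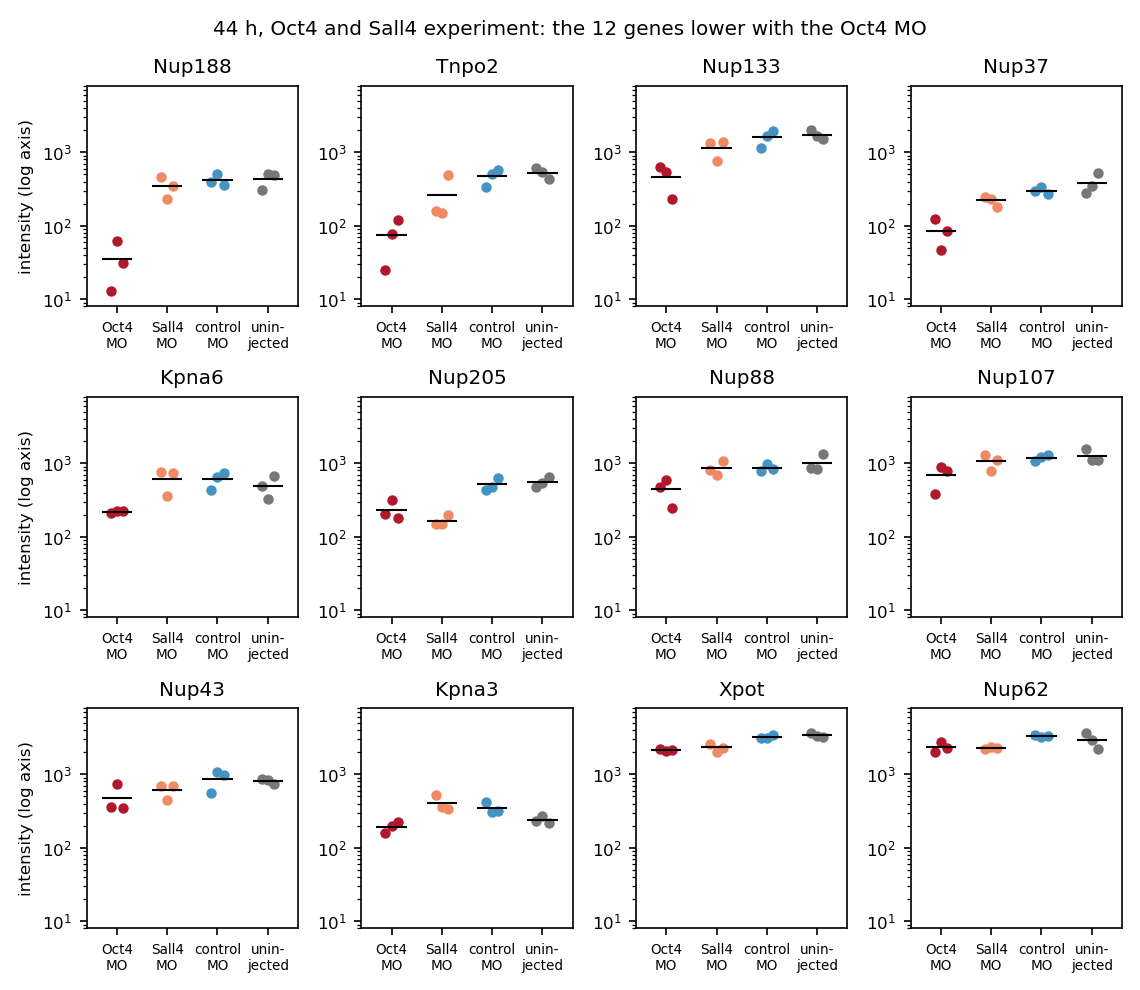
Intensity (log axis) at 44 h of the 12 genes that were lower with the Oct4 morpholino, 1 point per array and a bar for the mean of 3 arrays, in embryos with the Oct4, Sall4 or control morpholino and in uninjected embryos. Nup188 lies between 12.9 and 62.8 with the Oct4 morpholino and between 356 and 506 with the control. The Oct4 and control morpholino arrays overlap only in Nup43, and the 12 genes were chosen by the test of these groups.

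Against uninjected embryos at 44 h, 12 genes were again lower and 0 higher with the Oct4 morpholino (14.4% of all genes passed, 7.21% lower). Nup210, Ipo5 and Xpo6 passed at -1.86, -0.48 and -1.56, while Kpna3, Kpna6 and Nup62 stood at -0.28, -1.06 and -0.32 and did not pass. With the arrays of the Oct4 and control morpholino alone, 4 of the 42 genes passed, Nup188, Nup37, Tnpo2 and Kpna6. Nup133 (adjusted p = 0.0641), Nup205 (0.0850), Kpna3 (0.125), Xpot (0.138), Nup88 (0.155), Nup62 (0.208), Nup107 (0.212) and Nup43 (0.280) did not pass there. After quantile normalization, Nup62 stood at -0.31 (adjusted p = 0.194) and Xpot at -0.35 (0.135), and with the mean of its probe sets Nup62 at -0.33 (0.176). With a pseudocount of 64, Nup37 had an adjusted p of 0.0539. Without control replicate 3 the count was 6. Markers of stages moved beside these falls. The summed intensity of 4 transcripts of the 2-cell stage was 3406 to 6326 with the Oct4 morpholino and 746 to 1261 with the control, and all 4 were higher by the test. The sum of 12 maternal transcripts was 2928 to 3912 against 2398 to 2528 (1 higher), and that of 12 later preimplantation genes 11409 to 15179 against 14955 to 16752 (2 lower). The later genes include the morpholino targets Pou5f1 and Nanog, and Pou5f1 is among those that were lower, so this sum is not separate from the targets. Of 7 granulosa and cumulus cell genes, 3 met the filter on low values, which a mean in any group of the series can meet. On the arrays compared here, all 7 together summed to 76.4 to 95.6 with the Oct4 morpholino and 57.9 to 72.6 with the control. Of the 3 genes, 0 passed in limma (0 at an unadjusted p under 0.05). Levels this low leave little room to show a difference, so the test cannot decide on such cells. The ratio of the 3′ to the 5′ control probe set of Gapdh was 2.40 to 11.4 with the Oct4 morpholino and 3.50 to 3.69 with the control. The part of stage, cell content and RNA length in the falls was not tested.

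The 12 genes lower with the Oct4 morpholino were set beside their change over time in uninjected embryos, which rests on other arrays. Nup133, Nup188, Nup205, Nup43, Nup88, Tnpo2 and Xpot had risen between the times. These 7 are 58.3% of the 12 and 38.9% of the 18 that rose, where of all 957 genes lower with the Oct4 morpholino 51.2% had risen. Kpna3, Kpna6 and Nup62 fell over time as well (25.0% of the 12, where all genes gave 17.3%), and Nup107 and Nup37 had not passed over time. Nup188 had 12.9, 62.8 and 31.2 with the Oct4 morpholino at 44 h, and uninjected embryos had 189.9, 148 and 270.4 in the Oct4 experiment at 20 h. Tnpo2 had 24.8, 78.2 and 119.6 with the Oct4 morpholino at 44 h, and 222, 232 and 281 in uninjected embryos at 20 h. In both genes the 44 h arrays with the Oct4 morpholino lay below these 20 h arrays but overlapped those of the Sall4 experiment at 20 h, which were 64.1, 6.95 and 161 for Nup188 and 63.2, 121 and 231 for Tnpo2. This comparison crosses experiments and was not tested.

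**Figure D5:**
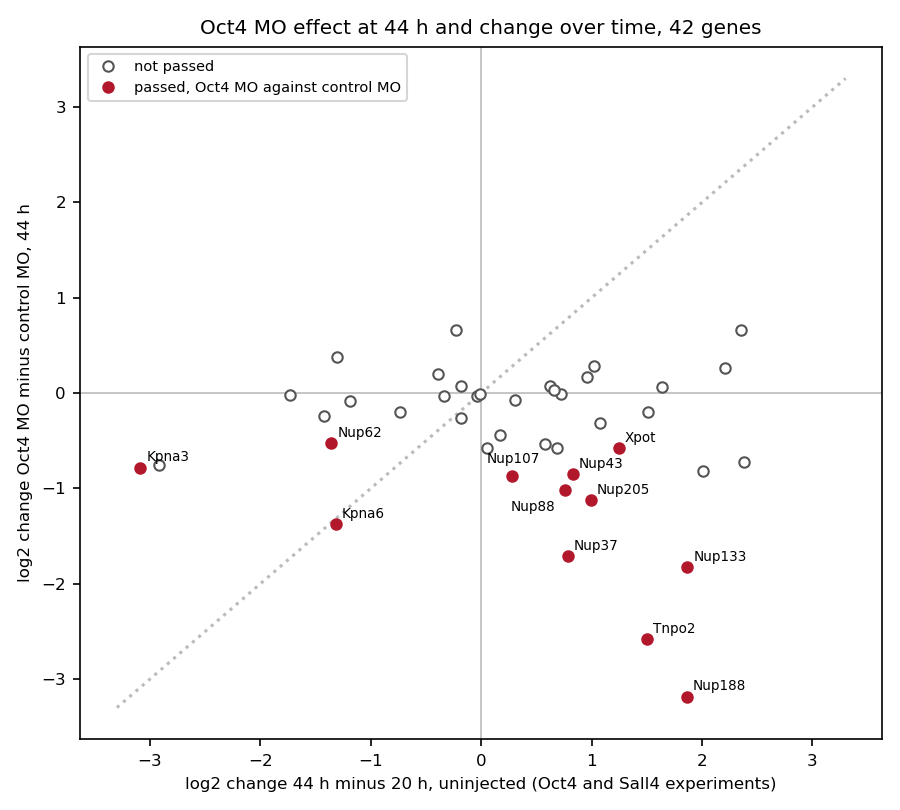
Log2 change with the Oct4 morpholino against the control morpholino at 44 h (vertical) and log2 change of 44 h minus 20 h in uninjected embryos (horizontal) for the 42 genes, with filled points for genes that passed with the Oct4 morpholino. Nup188, Tnpo2 and Nup133 lie at the lower right, lower with the Oct4 morpholino and higher at 44 h than at 20 h, and Kpna3 lies at the lower left.

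The upstream windows of the 3 genes with the largest falls are shown, from RefSeq annotation of GRCm38.p6 as above: Nup188 at chr2:30286166-30286415 on the plus strand, Tnpo2 at chr8:85036643-85036892 on the plus strand, for which the first of 2 annotated starts was used, and Nup133 at chr8:123949266-123949515 on the minus strand. The last bases of the Nup188 and Tnpo2 windows lie inside the gene as RefSeq spans it, so an annotated transcript of each begins slightly upstream of the start used. Capitals mark the CCAAT box and the GC box, and also the E box CACGTG and the element TGACGTCA, both of which read the same on either strand and were chosen after these windows had been read.
Nup188: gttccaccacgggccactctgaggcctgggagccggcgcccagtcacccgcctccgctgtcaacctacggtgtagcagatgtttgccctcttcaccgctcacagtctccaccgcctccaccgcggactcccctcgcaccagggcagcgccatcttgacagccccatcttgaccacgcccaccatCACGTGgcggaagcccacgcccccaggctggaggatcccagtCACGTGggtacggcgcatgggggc
Tnpo2: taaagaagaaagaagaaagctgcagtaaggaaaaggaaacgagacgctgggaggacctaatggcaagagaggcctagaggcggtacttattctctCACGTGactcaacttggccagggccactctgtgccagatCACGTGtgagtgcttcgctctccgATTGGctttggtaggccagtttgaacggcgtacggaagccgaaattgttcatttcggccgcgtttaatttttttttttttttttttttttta
Nup133: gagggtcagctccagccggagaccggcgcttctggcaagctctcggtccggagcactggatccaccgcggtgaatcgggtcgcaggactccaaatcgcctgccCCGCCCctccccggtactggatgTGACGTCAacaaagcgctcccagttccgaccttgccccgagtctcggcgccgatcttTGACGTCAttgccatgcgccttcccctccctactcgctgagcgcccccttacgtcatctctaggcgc
Nup188 has E boxes 66 and 24 bases before the start. Tnpo2 has E boxes at 155 and 116 bases and a CCAAT box at 92. Nup133 has a GC box at 147 bases and TGACGTCA at 124 and 67. Of the 12 genes lower with the Oct4 morpholino, 9 had a window, and CACGTG stood in 3 of them, in 6 of the 34 member windows and in 6.05% of all windows. TGACGTCA stood in 1 of the 9, in 2 of the 34 and in 1.62% of all windows. The counts of these elements include the windows read to choose them, Nup188 and Tnpo2 for CACGTG and Nup133 for TGACGTCA. They therefore cannot show that either element is more frequent here. ATGCAAAT, the octamer that Oct4 and its relatives bind, stood in 0 of the 34 member windows and in 1.61% of all windows, which says only that these letters are not in these stretches. GCGCATGCG, bound by NRF1, stood in 2 of the 9, in 4 of the 34 and in 1.49% of all windows. CCGGAA, the core bound by ETS factors, stood in 2 of the 9, in 10 of the 34 and in 12.2% of all windows, and the TATA box TATAAA in 0 of the 9, in 2 of the 34 and in 13.0%.

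The other genes of nuclear transport gave calls in the same direction with the Oct4 morpholino at 44 h: 7 of 37 were lower and 0 higher, with a median of -0.29 over the list. Among all genes, 6.18% were lower and 5.38% higher. Sec13, a subunit of the Y complex and of the COPII coat, fell to 90.7 ± 31.8 with the Oct4 morpholino, against 785 ± 158 with the control (SD, n = 3 each, log2 -2.93, SE 0.27, adjusted p = 7.99e-09). Nupl1, a channel nucleoporin that binds Nup62 and Nup54, fell to 45.8 ± 21.6 with the Oct4 morpholino, against 350.5 ± 14.3 (log2 -2.62, adjusted p = 3.29e-05). Aaas, a pore protein anchored by Ndc1, fell to 80.5 ± 6.90, against 436 ± 50.9 (log2 -2.22, adjusted p = 0.000408). Cse1l, the exportin that returns importin alpha to the cytoplasm, fell to 201 ± 45.6, against 882 ± 41.6 (log2 -2.07, adjusted p = 0.000185). These 4 passed without each array in turn. Of 13 genes of the lamina and envelope, 2 were lower, Banf1, which tethers chromatin to the envelope, at -2.23 and the lamin B receptor gene Lbr at -0.48. The call of Lbr was lost without control replicates 2 (0.114) or 3 (0.0522) or Oct4 morpholino replicates 1 (0.0775) or 3 (0.0614) (adjusted p in parentheses), and Banf1 passed without each array.

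With the Sall4 morpholino at 44 h, 2 of the 42 genes were lower than in control-injected embryos and 0 higher, 4.76% of the members, against 3.97% of all genes in either direction and 2.13% lower. The medians were -0.11 over the members and -0.02 over all genes. The gene with the larger fall was Nup205, which had 148, 149 and 199 with the Sall4 morpholino, against 433, 482 and 641 with the control, far apart on all arrays (log2 -1.55, SE 0.31, adjusted p = 0.00291). Nup205 passed without each array in turn and not with the 6 arrays of these groups alone (adjusted p = 0.0812). Nup62 had 2235, 2388 and 2248 with the Sall4 morpholino, against 3416, 3198 and 3359 with the control (log2 -0.53, SE 0.15, adjusted p = 0.0434). Its groups did not overlap, but its call was lost without any 1 of the 6 arrays: control replicates 1 (0.118), 2 (0.0945) or 3 (0.120) or Sall4 morpholino replicates 1 (0.0962), 2 (0.0993) or 3 (0.0804) (adjusted p in parentheses). It passed in 3 of 10 other settings, and stood at -0.12 (adjusted p = 0.805) with the mean of its probe sets. Against uninjected embryos 4 were lower, Nup205 (-1.66), Nup210 (-1.68), Ipo5 (-0.52) and Xpot (-0.55), and Kpna3 was higher (0.71), with 6.95% of all genes called, 3.39% lower and 3.57% higher. The largest falls of the Oct4 morpholino stood at -0.31 for Nup188, -0.98 for Tnpo2 and -0.47 for Nup133 with the Sall4 morpholino and did not pass. Of the importin genes, Kpna1 stood at 0.06, Kpna2 at 0.06, Kpna3 at 0.21, Kpna6 at -0.02, Kpna4 at 0.28, Kpna7 at 0.14, and Kpnb1 at -0.02, and Xpo1 stood at -0.15, and these did not pass. Of the other transport genes, Thoc6 and Thoc7, of the mRNA export complex THO, were lower (-1.74 and -0.71) and Ahctf1, which starts pore assembly on chromatin, was higher (0.67), 3 of 37. The call of Thoc7 was lost without control replicate 3 (0.0670) or Sall4 morpholino replicate 2 (0.0987) and that of Ahctf1 without control replicates 1 (0.144) or 2 (0.0842) or Sall4 morpholino replicates 2 (0.114) or 3 (0.0951), and none of Thoc6, Thoc7 and Ahctf1 passed with the arrays of these groups alone (adjusted p 0.0823 to 0.231). Maternal transcripts summed to 4281 to 4992 with the Sall4 morpholino, against 2398 to 2528, 4 of 12 higher. Transcripts of the 2-cell stage summed to 2439 to 4216 against 746 to 1261 (0 of 4 passed in limma, 4 at an unadjusted p under 0.05) and later preimplantation genes to 10244 to 14648 against 14955 to 16752 (2 of 12 lower). The later genes include Pou5f1 and Nanog, and Pou5f1 is among those that were lower. The part of these stage markers in the falls was not tested.

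The direct comparison of both knockdowns at 44 h tests the difference, with no shared control. With the Oct4 morpholino 7 genes were lower and 1 higher than with the Sall4 morpholino (19.0% of the members, against 7.07% of all genes, of which 3.36% lower and 3.71% higher), and the medians were -0.13 and 0.03. Nup188 had 12.9, 62.8 and 31.2 with the Oct4 morpholino, against 460.0, 229 and 349.8 with the Sall4 morpholino, without overlap (log2 -2.88, SE 0.66, adjusted p = 0.00541). Tnpo2 had 24.8, 78.2 and 119.6 with the Oct4 morpholino, against 159.6, 149 and 487 with the Sall4 morpholino (log2 -1.60, SE 0.40, adjusted p = 0.0100), and its highest Oct4 morpholino array was close to the lowest Sall4 morpholino array. Kpna3 had 158, 199 and 228 with the Oct4 morpholino, against 522, 355 and 339.9 with the Sall4 morpholino (log2 -0.99, SE 0.20, adjusted p = 0.00186). Kpna6 and Nup133 were also lower, by log2 changes of -1.35 and -1.35, without overlap. Nup88 had 477, 597 and 249 with the Oct4 morpholino, against 819, 696 and 1063 with the Sall4 morpholino (SE 0.26, adjusted p = 0.0132), again without overlap. Ipo8 passed at -1.30 with 582, 329 and 152 with the Oct4 morpholino, against 1007, 942 and 516 with the Sall4 morpholino, where the groups overlapped. The single higher gene was Tnpo3, with 1284, 1711 and 1599 with the Oct4 morpholino, against 366, 1026 and 723 with the Sall4 morpholino (log2 1.21, SE 0.25, adjusted p = 0.00222). Nup188, Kpna3, Ipo8 and Tnpo3 passed without each array in turn, but not with the 6 arrays of these groups alone, where 0 of the 42 genes passed in limma (adjusted p = 0.0763 for Nup188, 0.221 for Kpna3, 0.355 for Ipo8 and 0.284 for Tnpo3). With the mean of the probe sets of a gene, Kpna3 stood at -0.38 (adjusted p = 0.358), Nup133 at -0.62 (0.129) and Tnpo2 at -0.83 (0.276), and none of the 3 passed. The call of Tnpo2 was lost without Oct4 morpholino replicate 1 (0.106) or Sall4 morpholino replicate 3 (0.109) and that of Nup88 without Oct4 morpholino replicate 3 (0.142) or Sall4 morpholino replicate 3 (0.0761). That of Nup133 was lost without Oct4 morpholino replicate 3 (0.163) or Sall4 morpholino replicates 1 (0.0788) or 3 (0.0823), and that of Kpna6 without Oct4 morpholino replicates 1 (0.0574), 2 (0.0510) or 3 (0.0506) or Sall4 morpholino replicates 1 (0.105) or 3 (0.0871) (adjusted p in parentheses). The count was 5 without Oct4 morpholino replicate 3 and 4 without Sall4 morpholino replicate 3. Of the other transport genes, 7 of 37 were lower and 1 higher, with Sec13 at -2.72 and Nupl1 at -2.22, both of which passed without each array in turn. With these arrays alone Sec13 passed (adjusted p = 0.0483) and Nupl1 did not.

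With the Nanog morpholino at 44 h, 2 of the 42 genes were lower and 1 higher than in control-injected embryos of the same experiment, 7.14% of the members, against 5.01% of all genes (1.56% lower and 3.44% higher). The medians were -0.03 over the members and 0.05 over all genes. Nup37 had 137, 532 and 804 with the Nanog morpholino, against 2027, 2351 and 1474 with the control morpholino, without overlap (log2 -2.24, SE 0.50, adjusted p = 0.00643), and also passed against uninjected embryos (-2.67), where 2 members were lower (3.31% of all genes lower, 8.37% in either direction). Nup188 had 277, 723 and 1840.2 with the Nanog morpholino, against 4263, 5423 and 2768 with the control morpholino, with a wide spread among the knockdown arrays but no overlap (log2 -2.44, SE 0.66, adjusted p = 0.0253). Against uninjected embryos Nup188 stood at -1.74 and did not pass. Nup210l, a relative of the membrane nucleoporin Nup210, had 2246, 2023 and 1443 with the Nanog morpholino, against 576, 280.1 and 398 with the control morpholino, higher on each array (log2 2.18, SE 0.48, adjusted p = 0.00577), and stood at 1.42 against uninjected embryos, where it did not pass. The call of Nup37 was lost without Nanog morpholino replicate 1 (0.0939) and that of Nup188 without control replicates 1 (0.0680) or 2 (0.122) or Nanog morpholino replicates 1 (0.206) or 2 (0.0591) (adjusted p in parentheses), while Nup210l passed without each array. With a pseudocount of 1, Nup188 had an adjusted p of 0.0885. The count was 1 without Nanog morpholino replicate 1, and 0 with the arrays of both groups alone in limma. Nup37 and Nup188 were also among the 12 genes lower with the Oct4 morpholino, which has its own control arrays. They are 16.7% of the 12 and 100% of the 2, where all genes gave 5.54% and 21.9%. Of the importin genes, Kpna1 stood at -0.03, Kpna2 at 0.02, Kpna3 at 0.31, Kpna4 at -0.14, Kpna6 at -0.31, Kpna7 at 0.00 and Kpnb1 at -0.03, and Xpo1 stood at 0.04. None of these passed.

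Beside the Nanog morpholino changes, 2 of 37 other transport genes were lower, the membrane nucleoporin gene Ndc1 (-1.89) and the mRNA export helicase gene Ddx19b (-1.34). Among all genes, 1.56% were lower. The lamina gene Lmna was higher, with 2964 ± 655 in embryos with the Nanog morpholino and 555 ± 262 with the control (SD, n = 3 each, log2 2.49, SE 0.64, adjusted p = 0.0192). The call of Lmna was lost without control replicate 3 (0.104) or Nanog morpholino replicate 1 (0.0868), that of Ndc1 without Nanog morpholino replicate 1 (0.0898) and that of Ddx19b without control replicates 2 (0.125) or 3 (0.0794) or Nanog morpholino replicate 1 (0.186), and none of the 3 passed with the arrays of both groups alone (adjusted p 0.128 to 0.172). Stage markers moved here too. The 4 transcripts of the 2-cell stage summed to 7357 to 13265 with the Nanog morpholino and 2964 to 5731 with the control (3 higher), the 12 maternal ones to 20835 to 26989 against 10948 to 16346 (2 higher), and the 12 later ones to 31825 to 36481 against 45352 to 46354 (2 lower). The later ones include the target Nanog and Pou5f1, and Pou5f1 is among those that were lower. The part of these stage markers in the changes was not tested.

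Whether the Oct4 and Nanog morpholino effects at 44 h differ was tested as a difference of both changes, since each has its own controls. Arrays of the Nanog experiment lie on a higher scale (array medians of 193 to 227, against 26.1 to 33.3), and 16 was added to all intensities alike. The part of this scale in the differences was not tested. For 2 of the 42 genes the Oct4 effect was lower (1.60% of all genes lower, 2.13% in either direction). Tnpo2 stood at -2.58 with the Oct4 morpholino and -0.46 with the Nanog morpholino, a difference of -2.12 (SE 0.56, adjusted p = 0.0382). Its arrays in the Nanog experiment were 1298, 1969 and 1062 with the Nanog morpholino, against 1973, 2127 and 1704 with the control morpholino. Kpna3 stood at -0.78 with the Oct4 and 0.31 with the Nanog morpholino, a difference of -1.09 (SE 0.29, adjusted p = 0.0343), with 4157, 5569 and 3974 with the Nanog morpholino, against 3026, 4203 and 3789.6 with the control morpholino in the Nanog experiment. For both genes the arrays of the Nanog experiment overlapped. The control-injected arrays of Kpna3 in the Oct4 and Sall4 experiment (419.8, 306 and 313) lay above the uninjected ones at 44 h (228, 271 and 216). Against these uninjected embryos the change of Kpna3 with the Oct4 morpholino did not pass. The call of Tnpo2 was lost without Oct4 and Sall4 experiment control replicates 2 (0.0882) or 3 (0.0957), Oct4 morpholino replicate 1 (0.119), Nanog experiment control replicates 1 (0.0650), 2 (0.0590) or 3 (0.0805) or Nanog morpholino replicates 1 (0.0568) or 2 (0.0963). That of Kpna3 was lost without Oct4 and Sall4 experiment control replicate 1 (0.101), Oct4 morpholino replicate 1 (0.0896), Nanog experiment control replicates 1 (0.102) or 3 (0.0515) or Nanog morpholino replicate 2 (0.0952) (adjusted p in parentheses). After quantile normalization (adjusted p = 0.0547 for Tnpo2 and 0.0559 for Kpna3), with the mean of the probe sets of a gene (log2 -1.06 and -0.56, adjusted p = 0.402 and 0.397) and with the arrays of these groups alone (adjusted p = 0.151 and 0.175), 0 of the 42 genes passed in limma. The count was 4 without Oct4 morpholino replicate 2. Nup133 differed by -1.47 and Kpna6 by -1.06 between the effects, without passing. The differences between the Sall4 and the Nanog effect passed in 0 of 42 genes in limma (4 at an unadjusted p under 0.05), with 0.743% of all genes called.

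At 20 h, 3 of the 42 genes were lower with the Oct4 morpholino than in uninjected embryos of its experiment, and 0 higher (7.14% of the members, against 1.84% of all genes lower and 2.02% in either direction). The medians were -0.15 over the members and -0.02 over all genes. Nup107 had 329.7, 448 and 309.6 with the Oct4 morpholino, against 1025, 658 and 843 in uninjected embryos, so that each injected array was below each uninjected one (log2 -1.18, SE 0.24, adjusted p = 0.00533). Nup98 had 1152, 875 and 792 with the Oct4 morpholino, against 1779, 1348 and 1353 in uninjected embryos (log2 -0.67, SE 0.17, adjusted p = 0.0278), and its other probe set stood at -0.06. Tnpo3 had 817, 854 and 539.9 with the Oct4 morpholino, against 1631, 1478 and 1577 in uninjected embryos (log2 -1.09, SE 0.25, adjusted p = 0.0140), with its other probe sets at -0.82 and -1.16. None of the 3 overlapped. With the 6 arrays of these groups alone 0 of the 42 genes passed in limma (adjusted p = 0.134 for Nup107, 0.131 for Tnpo3 and 0.274 for Nup98). After quantile normalization Nup98 stood at -0.48 (adjusted p = 0.135) and Tnpo3 at -0.86 (0.108), and with the mean of its probe sets Nup98 at -0.36 (0.406). This comparison has no control-injected embryos, so injection and knockdown cannot be told apart. The call of Nup107 was lost without uninjected replicate 1 (0.0742), that of Tnpo3 without uninjected replicates 1 (0.0876) or 3 (0.0654) or Oct4 morpholino replicate 3 (0.133) and that of Nup98 without uninjected replicates 1 (0.259) or 3 (0.0621) or Oct4 morpholino replicates 2 (0.132) or 3 (0.194) (adjusted p in parentheses). Without Oct4 morpholino replicate 1 there were 6 calls, without replicate 3 of either group 1, and without uninjected replicate 1 there were 0 in limma. Nup107 was also lower with the Oct4 morpholino at 44 h, the 1 gene shared by both lists (33.3% of 3 and 8.33% of 12, where all genes gave 22.8% and 6.79%). Tnpo3, in contrast, stood at 0.66 at 44 h and did not pass. Of the other transport genes 3 of 37 were lower, the exportin gene Cse1l (-1.59), the snRNP importer Snupn (-1.23) and Thoc1 of the THO complex (-0.66). The call of Cse1l was lost without uninjected replicates 1 (0.0708) or 3 (0.0703) or Oct4 morpholino replicate 2 (0.0922), that of Snupn without uninjected replicates 1 (0.0742) or 3 (0.0819) or Oct4 morpholino replicates 2 (0.0934) or 3 (0.102) and that of Thoc1 without uninjected replicates 1 (0.0820) or 3 (0.120) or Oct4 morpholino replicate 3 (0.0897), and none of these 3 passed with the arrays of these groups alone (adjusted p 0.0625 to 0.248).

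In the other comparisons at 20 h and in the comparisons of control-injected with uninjected embryos, 0 of the 42 genes passed in limma. With the Sall4 morpholino at 20 h, 5 genes had an unadjusted p under 0.05 (0.233% of all genes passed). With the Nanog morpholino at 20 h there were 4 (0.620%). Between control-injected and uninjected embryos there were 2 at 20 h in the Nanog experiment (0.0905%), 3 at 44 h where Oct4 and Sall4 were tested (0.0969%) and 2 at 44 h in the Nanog experiment (0.349%). Tnpo3 had 671, 620.3 and 525 with the Sall4 morpholino at 20 h, against 884, 1209.8 and 1352 in uninjected embryos, lower on each array, and did not pass (log2 -0.89, SE 0.25, adjusted p = 0.136). Kpna3, Kpna4 and Kpna6 stood at 0.12, -0.26 and -0.64 with the Sall4 morpholino and at 0.16, 0.19 and -0.64 with the Nanog morpholino at 20 h. Leaving out 1 array gave 2 genes with the Sall4 morpholino without uninjected replicate 1, and 1 gene for control-injected embryos at 20 h without uninjected replicate 2.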

How the data were processed

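Values are the intensities the authors deposited, 1 per probe set and array, on a linear scale from 0.42 to 133546. Per the labels' protocols, RNA was isolated with a PicoPure kit, amplified with the WT-Ovation One-Direct system and labelled with biotin. The normalization and its software are not given in the sources used here, and amplification and the 3′ position of probes can affect the levels. Gene symbols came from GEO's platform annotation (34945 of 45101 probe sets with 1 symbol, 932 with several).

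Values were taken as log2(intensity + 16) with no further scaling. Genes entered the test if any group's mean exceeded the table's median, an intensity of 71.15. One limma model (limma 3.58.1 in R 4.3.3) held a mean for each of the 14 groups over 42 arrays, with 28 residual degrees of freedom. The comparisons, 12 of groups and 2 of effects, were tested with Benjamini-Hochberg adjustment over 15478 genes in each, at 0.05. The fit was first tested on simulated data with known changes. With 3 arrays against 3, an exact permutation test cannot go below p = 0.1, so none was run. No pair of arrays correlated above 0.964, which is within the range of replicates (0.896 to 0.964), and all were kept. Replicate numbers are shared between groups. The deviations of same-numbered control-injected and uninjected embryos at 20 h in the Nanog experiment correlated at 0.111, 0.120 and 0.114. All 3 exceed 0.1, but correlations this low do not show whether the numbers pair these arrays. In no other pair of groups did all 3 exceed 0.1. A replicate block left the count of members at 0 in limma there (2 had an unadjusted p under 0.05 without it).

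The 42 genes, the gene lists and the tests were chosen with earlier results of these data known. Named were the members that passed without overlap between groups, at most the 8 largest rises and falls per comparison, the importin alpha genes, Kpnb1 and Xpo1 throughout, and at most 4 other transport genes per comparison. Other named genes, among them Nup43, Nup37 over time, Xpo6, Ipo5, Ipo7, Nup93, Nup85 in the Oct4 and Sall4 experiments, Nup153, Ipo8 between both knockdowns, Tnpo3 where it did not pass, and genes given to complete a role group, were chosen after their values were seen. Alternatives were other pseudocounts, scalings, filters and probe set summaries, the arrays compared alone, a replicate block, uninjected controls and leaving out each array. Figures were drawn with matplotlib 3.10.9 (Python 3.11.15).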

Additional observations from a re-analysis of the deposited data

Results flagged for a closer look

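For 2 of the 42 genes, the effect of the Oct4 morpholino at 44 h differed from that of the Nanog morpholino by a test of the difference itself. The difference (Oct4 effect minus Nanog effect, log2) was -2.12 for Tnpo2 and -1.09 for Kpna3. Neither passed after quantile normalization, with the mean of all probe sets of a gene (-1.06 and -0.56) or with the arrays of these groups alone, where 0 of the 42 genes passed in limma. Leaving out 1 array gave 0 to 4 of the 42 genes, and Tnpo2 passed without 4 of the 12 arrays in turn. Against uninjected embryos at 44 h, the change of Kpna3 with the Oct4 morpholino did not pass. Intensities of the Nanog experiment lie on a higher scale than the others, and the part of this in the differences was not tested.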

How the results depend on the processing

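Each of 145 changes, of the members and of the other transport genes that passed, was recomputed under the alternatives, 1482 values in all. Of these, 1274 kept their direction and their side of the threshold, 207 kept the direction and no longer passed, and 1 reversed: Rcc2 between 44 h and 20 h in the Nanog experiment, at -0.18 with the mean of all probe sets. Of 71 changes of members, 31 passed under every alternative and 39 without each array in turn. Leaving out 1 array gave counts of members that passed of 6 to 11 for Oct4 against control morpholino at 44 h (12 with all arrays), 1 to 2 for Sall4 (2), 1 to 3 for Nanog (3), 4 to 10 for Oct4 against Sall4 (8), 0 to 6 for Oct4 at 20 h (3), 0 to 2 for Sall4 at 20 h (0), 0 to 1 for control-injected against uninjected embryos at 20 h (0), 6 to 14 for 44 h against 20 h in the Nanog experiment (12), 27 to 31 in the others (29) and 0 to 4 for the Oct4 minus Nanog effect (2). With the arrays of the groups alone, which leaves fewer residual degrees of freedom, the counts were 4 for Oct4 at 44 h, 5 for the Nanog experiment over time, and 0 in limma for Sall4, Nanog and Oct4 against Sall4 at 44 h, for Oct4 at 20 h and for the Oct4 minus Nanog effect. Quantile normalization gave 1 for Oct4 at 20 h, 1 for Nanog at 20 h, 1 for Sall4 at 44 h and 0 for the Oct4 minus Nanog effect. The mean of all probe sets gave 7 for Nanog at 44 h, 1 for Nanog at 20 h, 0 for the Oct4 minus Nanog effect and 1 for the Sall4 minus Nanog effect. A pseudocount of 64 gave 1 for Nanog at 20 h and 1 for the Oct4 minus Nanog effect, and for Sall4 at 44 h a pseudocount of 1 gave 1, median centring 1 and uninjected controls 5. The cause of these shifts was not tested. The deviations of 42 same-numbered pairs correlated between -0.05 and 0.14, with 5 over 0.1, of which 3 were those of control-injected and uninjected embryos at 20 h in the Nanog experiment. The same groups at 44 h in the Nanog experiment gave 0.089, 0.134 and 0.063. Correlations this low do not show whether the numbers pair the arrays. With the number as a replicate block, 0 members passed in limma for control-injected against uninjected embryos at 20 h, 5 members passed for Oct4 at 20 h and 1 for Sall4 at 44 h, and the counts were 12 for Oct4 at 44 h, 7 for Oct4 against Sall4, 3 for Nanog at 44 h, 13 and 28 over time and 2 for the Oct4 minus Nanog effect. Limits are 3 arrays a group, intensities of unstated normalization and a dim end where values near 16 carry little information on the log2 scale used.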
